A study of Mus musculus with 6 samples.

Results

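Synaptic vesicle and SNARE genes are described here in mouse embryonic stem cells (ESCs) and in the neuronal cells (NCs) made from them. The genes were chosen by name alone, as every synaptotagmin, synapsin, synaptophysin, syntaxin, syntaxin-binding protein, VAMP, SNAP, Rab3, complexin, SV2 or RIM gene whose symbol is one of these stems with only a number, and in some families a letter, behind it. The rule found 68 genes on 69 rows, of 22969 distinct names on 23235 rows. For a comparison of paralogs, 33 were classed as neuronal, 18 as ubiquitous and 17 as mixed or typical of other tissues, from general knowledge of where each gene is known to act. The class was not taken from its values.

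RNA was sequenced from 3 samples of E14Tg2a, a mouse ESC line, kept pluripotent with leukemia inhibitory factor (LIF). The other 3 samples were NCs, the same line grown as LIF-free monolayers with 1 µM retinoic acid (RA) for 48 h. Cells of both conditions were at passages 37 to 40. The paper states that RNA was isolated from a pair of culture plates, but not whether each sample had its own pair. All 6 samples thus share 1 cell line, and a population of mixed cells was read in each, so that fewer cells of a type and less RNA per cell cannot be told apart. Levels are in FPKM, the count of cDNA fragments of a gene divided by the length of its transcripts and by the size of the library. FPKM is scaled to length and so it can be compared between genes. The table analysed holds 1 FPKM for each gene and condition, estimated by the authors from the 3 replicates. It holds no value of a single sample, so no SD or test could be computed here. The authors' own test statistics and p-values were not used. The differences given are thus descriptions that have no replicate check here.

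A synaptic vesicle fuses with the plasma membrane when a SNARE of the vesicle, a synaptobrevin (VAMP), zippers into a bundle with the plasma membrane SNAREs, a syntaxin and a protein of the SNAP-25 type. Munc18 proteins hold and guide the syntaxin, complexins clamp the partly zippered bundle, synaptotagmins sense calcium, and Rab3 and RIM proteins place the vesicle at the release site. Every cell fuses membranes with SNAREs of the same build, and many subunits exist as a neuronal and a ubiquitous paralog.

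The marker genes do not give NCs the profile of mature neurons. The pluripotency markers Pou5f1, Nanog, Esrrb, Zfp42, Klf4, Tdgf1, Dppa5a and Sox2 were all at least 2-fold lower in NCs, Pou5f1 (Oct4) at 832 FPKM in ESCs against 37.1 in NCs. All 5 RA response genes were higher, Rarb, Stra8 and Crabp2 among them, with Cyp26a1, an RA-degrading enzyme, at 0.874 and 215 FPKM. Of 8 neural progenitor markers, 6 were at least 2-fold higher in NCs, Irx3, Pax3, Sox3, Zic1, Pax6 (3.64 and 65.2 FPKM) and Sox1 (1.77 and 21.8 FPKM). Nes was within 2-fold and Fabp7 was lower. Of the 10 neuron markers, 9 reached the level limit used for all genes, 5 of these were at least 2-fold lower in NCs (Elavl3, Nefl, Nefm, Stmn2 and Tubb3) and none was 2-fold higher. The neuron-specific tubulin Tubb3 stood at 33.4 FPKM in ESCs and 7.54 in NCs, Stmn2 at 142 and 11.8, Map2 at 3.18 and 2.35, and Rbfox3 (NeuN) at 1.11 and 0.832. Elavl4 and Gap43 were within 2-fold. Dcx, a marker of young neurons, was 0.0140 FPKM in ESCs against 0.334 in NCs. The summed level of the 10 neuron markers was 205 FPKM in ESCs, most of it from Stmn2, against 33.8 in NCs. Markers of primitive or visceral endoderm were higher in NCs for 4 of the 5 that reached the limit (Gata6, Sox17, Sox7 and Dab2, but not Gata4), Afp was under it, and their summed level was 16.3 and 34.1 FPKM. Among the 5 mesoderm markers, Kdr was higher in NCs (0.339 and 0.697 FPKM), Mesp2 and Tbx6 were within 2-fold, and T and Mesp1 were under the limit. T was lower in NCs (0.628 and 0.299 FPKM), and the summed level of the mesoderm markers was 3.59 and 2.96 FPKM. The part of these cell types in the values of the vesicle genes was not tested.

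Of the 68 genes, 51 had a mean FPKM over both conditions of at least 0.5, the limit for giving a ratio a call: 21 neuronal, 17 ubiquitous and 13 mixed. At least 2-fold higher in NCs were 7 of the 51, or 13.7%, where 12.4% of all 13878 genes past the limit were. At least 2-fold lower were 5, or 9.80%, where the share over all genes was 10.5%. These counts lie near the background and are no result about the genes as a group. The neuronal class had 3 genes higher and 3 lower, the ubiquitous class 1 and 1, and the mixed class 3 and 1. The median log2 ratio of NC to ESC was -0.23 for the neuronal, 0.32 for the ubiquitous and 0.18 for the mixed genes, and -0.03 over all genes past the limit. The neuronal median moves to -0.01 when the level limit is dropped, so its sign carries little weight.

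**Figure D1:**
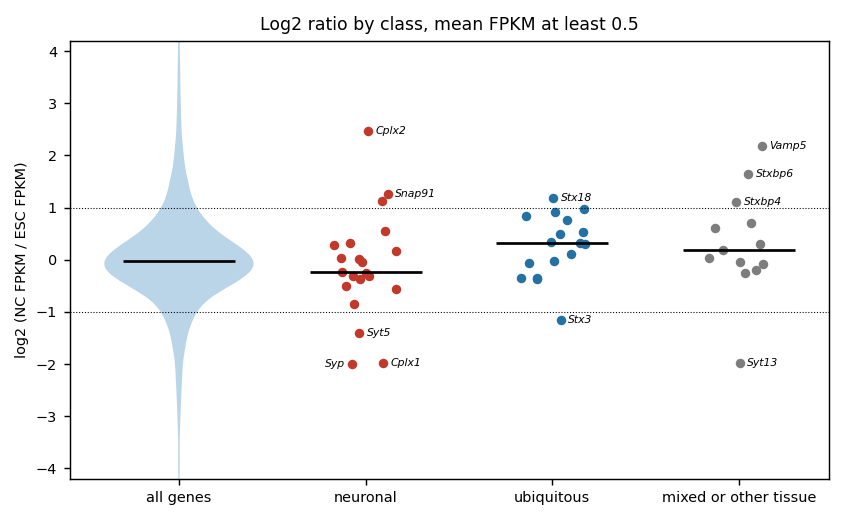
Log2 ratio of NC to ESC FPKM (vertical axis) for all genes past the level limit (pale blue shape, whose tails run past the axis) and for the genes of each class (1 point a gene, named where described here as past 2-fold). Black bars are medians and dotted lines mark a 2-fold difference, and the medians of the 3 classes, -0.23, 0.32 and 0.18, lie within the bulk of all genes.

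Levels, in contrast, set the ubiquitous class above the others in both conditions. The classes rest on where genes are known to act, so part of this gap may be built in. The median FPKM of all 33 neuronal genes was 1.06 in ESCs and 0.968 in NCs, and that of the 18 ubiquitous genes was 18.6 and 20.3. The 17 mixed genes had medians of 1.78 and 2.40 FPKM. Among genes past the level limit, the neuronal and mixed medians were close, 3.13 and 2.61 FPKM in ESCs and 2.59 and 2.57 in NCs. At 10 FPKM or more stood 4 neuronal genes in ESCs and 3 in NCs, against 11 and 13 ubiquitous genes. Rims3, Vamp2 and Syt9 were among the 4, and Syt9 was the one under 10 FPKM in NCs. Across the 51 genes past the limit, the levels in ESCs and NCs followed each other, with a Spearman rho of 0.870 and a Pearson r of 0.875 on the log2 scale. Both values of a gene come from the same transcript length and pipeline, and genes are not independent replicates.

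In the SNAP-25 type SNAREs, the ubiquitous paralog stood far above the neuronal one. Snap25, the SNARE of neuronal exocytosis (chr2:136713453-136782428, plus strand; positions of genes are those of GENCODE M21 on GRCm38), was 0.573 FPKM in ESCs against 0.204 in NCs. Snap23, its paralog for exocytosis in most cells (chr2:120567671-120601255, plus strand), was 24.3 and 30.6 FPKM. Snap23 was thus 42.4-fold above Snap25 in ESCs and 150.1-fold above it in NCs, and Snap25 made up 2.31% and 0.662% of their sum. The mean of Snap25 lies under the level limit, so its ratio, a log2 of -1.49, was not called. Snap29, which acts in endosomal and autophagosomal fusion, was 6.09 and 7.52 FPKM. Snap47, a SNAP with a wider tissue range, was at 46.1 and 52.2 FPKM. Snap91 shares the stem of the name but encodes AP180, a clathrin adaptor of vesicle endocytosis and no SNARE. It was 0.826 FPKM in ESCs against 1.97 in NCs, 2.39-fold higher in NCs, from chr9:86765923-86880654 on the minus strand.

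Among the plasma membrane syntaxins, Stx3 was lower in NCs and those of other cells were above Stx1a, a syntaxin of synaptic release. Stx1a (chr5:135023482-135051100, plus strand) was 4.63 FPKM in ESCs against 5.78 in NCs, a difference under 2-fold. Stx3, a syntaxin of apical membranes that also serves ribbon synapses (chr19:11775118-11819403, minus strand), was 36.1 FPKM in ESCs against 16.3 in NCs, 2.22-fold lower. Stx4a, the syntaxin of regulated exocytosis outside neurons, was 20.5 and 22.1 FPKM. In ESCs Stx3 was above Stx4a, and in NCs Stx4a was above Stx3. Stx2 was 6.40 and 11.4 FPKM, 1.79-fold higher in NCs. These 3 ubiquitous syntaxins stood above Stx1a in both conditions.

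Among the synaptobrevins, the ubiquitous paralogs led and their sum was higher in NCs. Vamp2, the main synaptobrevin of brain synapses (chr11:69088490-69092384, plus strand), was 12.4 FPKM in ESCs against 15.1 in NCs. Vamp1 was 1.06 and 0.852 FPKM. Vamp3 (cellubrevin, of recycling endosomes; chr4:151047300-151057963, minus strand) was 46.5 and 67.3 FPKM, and Vamp8 (endobrevin, of late endosomes and secretory granules; chr6:72385223-72390703, minus strand) 23.8 and 45.0 FPKM, 1.89-fold higher in NCs. No gene of this group reached a 2-fold difference, and the neuronal share was 16.1% in ESCs and 12.4% in NCs. The neuronal pair itself summed to 13.4 FPKM in ESCs against 15.9 in NCs, so the lower share goes with a higher sum of Vamp3 and Vamp8, 70.3 against 112 FPKM. The shares of the synaptobrevins and of the SNAP-25 type each differed between the conditions by less than 5 percentage points. For the SNAP-25 type, at 2.31% in ESCs and 0.662% in NCs, a fall of that size was not possible. Of the other VAMP genes, Vamp5, best known from muscle, was 0.530 FPKM in ESCs against 2.42 in NCs, 4.56-fold higher (chr6:72368794-72380468, minus strand, close to Vamp8). Vamp4, of the trans-Golgi network, was 4.26 and 7.23 FPKM. Vamp7 is listed at 0 in both conditions, and its symbol was not matched in the GENCODE M21 annotation.

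**Figure D2:**
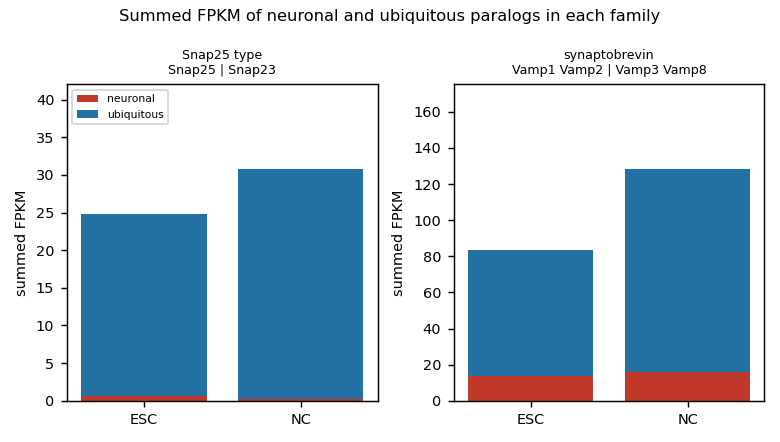
Summed FPKM (vertical axes, each from 0) of the neuronal (red) and ubiquitous (blue) paralogs of the SNAP-25 type and of the synaptobrevins in ESCs and NCs, with the genes named above each panel. The red part is 2.31% and 0.662% of the bar for the SNAP-25 type and 16.1% and 12.4% for the synaptobrevins.

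The remaining syntaxins, which serve the Golgi, endosomes and autophagosomes, were mostly alike in both conditions. Stx18, a syntaxin of the endoplasmic reticulum (chr5:38038742-38137765, plus strand), was 5.88 FPKM in ESCs against 13.3 in NCs, 2.26-fold higher, and was the ubiquitous gene past the 2-fold limit in that direction. Stx17, of autophagosomes, was 1.75 and 3.43 FPKM, 1.96-fold higher and just short of it. Stx5a, of the path from endoplasmic reticulum to Golgi, was 16.8 and 23.7 FPKM. Stx6 and Stx16, of the trans-Golgi network, were 17.2 and 21.5 FPKM and 20.0 and 19.2 FPKM. Among endosomal syntaxins, Stx7 was 29.4 and 23.1 FPKM, Stx8 was 6.07 and 5.997 FPKM and Stx12 was 35.1 and 27.5 FPKM. None of these 6 differed 2-fold. Stx11, known from leukocytes, was 0.830 and 1.36 FPKM. Stx19 was 0.118 and 0.126 FPKM, under the level limit.

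Of the syntaxin-binding proteins described here, Stxbp4 and Stxbp6 passed the 2-fold limit, both with the higher value in NCs. Stxbp2 (Munc18-2), the Munc18 of exocytosis in blood and epithelial cells (chr8:3630955-3643644, plus strand), was 35.1 FPKM in ESCs against 27.3 in NCs. Stxbp6 (amisyn), which binds syntaxin in place of a VAMP, was 1.51 and 4.76 FPKM, 3.15-fold higher in NCs (chr12:44852484-45074709, minus strand). Stxbp4 (Synip), known from insulin-regulated traffic, was 3.76 and 8.07 FPKM, 2.15-fold higher (chr11:90476492-90638084, minus strand). Stxbp5 (tomosyn), an inhibitor of SNARE assembly, was 1.78 and 1.81 FPKM.

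The complexins Cplx1 and Cplx2 differed between the conditions in opposite directions. Cplx2 (chr13:54371349-54383917, plus strand) was 0.467 FPKM in ESCs against 2.59 in NCs, 5.55-fold higher, the highest ratio of the 51 genes. Cplx1 (chr5:108518554-108550024, minus strand), the other complexin common in brain, was 2.92 and 0.740 FPKM, 3.95-fold lower in NCs. The summed level of the complexins was nearly the same, 3.42 FPKM in ESCs against 3.33 in NCs. Cplx1 was thus the higher of the pair in ESCs, and Cplx2 in NCs. The retinal complexins Cplx3 and Cplx4 were at or under 0.0177 FPKM in both conditions, under the value that 3 fragments would give for transcripts of their length, so no ratio is given.

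Of the 17 synaptotagmins, 9 were past the level limit, and 2 of these were at least 2-fold lower in NCs and none 2-fold higher, counts too small to read against the 10.5% and 12.4% of all genes. Syt5, a calcium sensor of synaptic and dense-core vesicles (chr7:4539765-4547541, minus strand), was 4.12 FPKM in ESCs against 1.55 in NCs, 2.65-fold lower. Syt13, a member without calcium binding (chr2:92915098-92956058, plus strand), was 4.60 and 1.17 FPKM, 3.93-fold lower. The highest synaptotagmin in both conditions was Syt9, at 11.4 and 7.98 FPKM. Syt11, which does not bind calcium, followed at 5.61 and 5.47 FPKM. Neither differed 2-fold. Syt7, a slow calcium sensor also used outside neurons, was 2.61 and 3.23 FPKM, and Syt3 2.47 and 2.52 FPKM. Syt12 was 1.42 and 1.39 FPKM, Syt14 was 2.95 and 2.57 FPKM, and Syt17 was 1.33 and 2.04 FPKM.

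Syt1 and Syt2, calcium sensors of fast synaptic release, were under the level limit, while Syt9, also known as a fast sensor, was above it. Syt1, the main fast sensor of forebrain (chr10:108497650-109010982, minus strand), was 0.444 FPKM in ESCs against 0.381 in NCs, and Syt2 was 0.0851 and 0.136 FPKM. Syt4 was 0.533 and 0.0499 FPKM, a log2 ratio of -3.42 that was not called because its mean is under the limit. Values higher in NCs but also under the limit were those of Syt6, 0.0627 and 0.335 FPKM, and Syt16, 0.0538 and 0.222 FPKM. The last 3 of the family, Syt8, Syt10 and Syt15, lay between 0.0639 and 0.463 FPKM.

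Synaptophysin was lower in NCs, and the synapsin and SV2 genes were all under 6 FPKM in both conditions. Syp, an abundant vesicle membrane protein used as a synapse marker (chrX:7638471-7653256, plus strand), was 3.88 FPKM in ESCs against 0.968 in NCs, 4.01-fold lower, the lowest ratio of the 51 genes. Syn1 (chrX:20860511-20921004, minus strand), which tethers vesicles to actin, was 5.33 and 2.95 FPKM, 1.81-fold lower and short of the 2-fold limit. Syn2 was 0.164 and 0.4999 FPKM and Syn3 0.418 and 0.609 FPKM. Sv2a, the SV2 glycoprotein found on most vesicles, was alike at 3.13 and 3.17 FPKM. Sv2c was 0.207 and 0.304 FPKM. Sv2b was 0.00755 FPKM in ESCs, no more than 3 fragments would give, and 0.159 FPKM in NCs. Of these genes only Syp passed the 2-fold limit, and Syn2, Sv2b and Sv2c were under the level limit.

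No gene of the docking factors Rab3 and RIM differed 2-fold. Rab3a, the main GTPase of synaptic vesicles, was 5.87 FPKM in ESCs against 4.55 in NCs. Rab3b was 2.54 and 2.40 FPKM, and Rab3d, known from exocrine cells, 4.76 and 4.01 FPKM. Rab3c was 0.0213 and 0.0315 FPKM. The RIM genes encode scaffolds of the active zone, where vesicles dock. Rims3, a short RIM, was the highest at 13.05 and 14.7 FPKM, and Rims4 was 3.82 and 3.06 FPKM. The long RIMs were lower, with Rims2 at 2.21 and 1.89 FPKM and Rims1 at 0.817 and 0.555 FPKM. Rims1 has a second row of 0.326 and 0.593 FPKM, so the direction of its difference depends on the row. The row with the higher mean was used.

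The promoters of 4 neuronal genes past the 2-fold limit are shown because these genes moved in both directions, and that of Syn1 because it was the only one of the 52 with a match to either of a pair of motifs searched. Each is the 250 bases before the RefSeq transcription start on GRCm38.p6, 5′ to 3′ on the strand of the gene, in lower case with motif matches in capitals. The motifs were the core motif of retinoid receptors, AGGTCA, the cAMP response element TGACGTCA, the GC box GGGCGG, and TTCAGCACC, the first letters of the site of the neuronal repressor REST, each on both strands, so that GGGCGG also reads CCGCCC. No match overlaps another in the sequences shown. Snap91 lies at chr9:86880709-86880958 (minus strand), Cplx1 at chr5:108550028-108550277 (minus), Cplx2 at chr13:54302306-54302555 (plus), Syn1 at chrX:20920919-20921168 (minus) and Syp at chrX:7638330-7638579 (plus). For Cplx2 the RefSeq start is upstream of the gene start in GENCODE M21, so this window is 1 of its possible promoters. The RefSeq starts of Syp and Syn1 lie inside the GENCODE M21 genes, so their windows overlap annotated gene sequence, in Syp also where its GC boxes lie. Syt5 was not matched.
Syp: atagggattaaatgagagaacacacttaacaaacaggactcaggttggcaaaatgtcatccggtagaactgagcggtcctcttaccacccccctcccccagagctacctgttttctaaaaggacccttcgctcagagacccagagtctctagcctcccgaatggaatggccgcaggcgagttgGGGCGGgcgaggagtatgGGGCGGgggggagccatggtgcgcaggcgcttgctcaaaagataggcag
Cplx1: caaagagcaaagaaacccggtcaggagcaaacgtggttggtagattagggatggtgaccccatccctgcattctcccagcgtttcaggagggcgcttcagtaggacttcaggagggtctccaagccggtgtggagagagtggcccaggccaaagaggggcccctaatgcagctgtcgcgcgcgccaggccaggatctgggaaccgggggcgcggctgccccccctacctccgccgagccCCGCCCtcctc
Syn1: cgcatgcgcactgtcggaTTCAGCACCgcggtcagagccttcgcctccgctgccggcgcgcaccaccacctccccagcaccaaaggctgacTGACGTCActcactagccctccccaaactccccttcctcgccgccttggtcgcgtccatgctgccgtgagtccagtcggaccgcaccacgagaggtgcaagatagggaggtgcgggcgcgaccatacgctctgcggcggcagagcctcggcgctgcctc
Cplx2: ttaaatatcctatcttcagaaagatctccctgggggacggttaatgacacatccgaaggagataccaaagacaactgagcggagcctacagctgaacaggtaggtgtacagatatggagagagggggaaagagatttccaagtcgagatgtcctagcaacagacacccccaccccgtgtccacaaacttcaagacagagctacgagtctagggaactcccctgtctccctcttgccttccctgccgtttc
Snap91: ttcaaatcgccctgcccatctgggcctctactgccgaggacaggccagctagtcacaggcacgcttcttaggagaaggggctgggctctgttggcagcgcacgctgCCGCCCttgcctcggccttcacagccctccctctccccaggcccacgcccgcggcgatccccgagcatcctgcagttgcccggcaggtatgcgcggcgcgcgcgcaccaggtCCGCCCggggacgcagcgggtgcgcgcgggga

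The windows of Syp, Cplx1 and Snap91 hold a GC box, and that of Cplx2, the gene with the highest ratio, holds none of the 4 motifs. Over the 52 of the 68 genes with a promoter entry, 35 or 67.3% held a GC box, as did 32.9% of the windows of all 27025 genes. By class these were 17 of 22 neuronal, 7 of 16 ubiquitous and 11 of 14 mixed genes. The median number of CpG dinucleotides in the window was 15.5 for the 52 genes and 6 over all genes. The windows of all genes were not matched to the 52 in CpG number or in level, so the GC box shares do not compare like with like. AGGTCA was found in 13.5% of the 52 windows and in 13.8% of all windows. TGACGTCA and TTCAGCACC were each found in 1 of the 52, Syn1, and in 1.62% and 0.285% of all windows. A match is a description of letters and says nothing of binding.

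Positions and neighbours limit some of the values. Per the GENCODE M21 annotation, the span of the neuronal genes had a median of 58.9 kb and that of the ubiquitous genes 28.6 kb, while their longest transcripts had medians of 4334 and 3002 bases. The strand setting of the counting was not given in the sources used here, so reads of a gene and of a partner on the opposite strand may not have been told apart. Exons of Gm14703 on the opposite strand cover 16.8% of the exon bases of Syp, and exons of Gm42858 cover 19.8% of those of Stx18. Of the 50-base words of the longest Stx18 transcript, 19.0% recur in transcripts of other genes, and for Cplx2 this was 4.28%. Nsg1 was the gene that shared the most words with Stx18. Among genes under 2-fold, Syn3 shares 14.1% of its exon bases with Timp3 and Syt12 17.2% with A930001C03Rik. Of their 50-base words, 35.6% (Syn3) and 26.7% (Syt12) recur in other genes. The values of these genes are uncertain. The shares do not bound how much of a value could come from a neighbour, and that part was not tested. The other genes found by the name rule and described here as past the 2-fold limit had no exon overlap. At most 1.60% of their 50-base words recur elsewhere. Genes outside the rule, such as those of the other lists and the markers, were not checked for overlaps or shared words.

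Other genes of the vesicle cycle and of membrane fusion were read from 5 lists with 84 genes found, of which 65 were past the level limit. Of these, 3 were at least 2-fold higher in NCs and 7 lower, with a median log2 ratio of -0.04. These are 4.62% and 10.8%, where over all genes 12.4% were higher and 10.5% lower. The list of priming, docking and active zone genes held 7 of these 10, with 2 higher (11.8%) and 5 lower (29.4%) of 17, and the difference between lists was not tested. Unc13a (Munc13-1), which opens syntaxin for assembly and primes vesicles, was 1.98 FPKM in ESCs against 0.220 in NCs, 9.004-fold lower. Doc2b, a calcium sensor of spontaneous release, was 0.118 and 1.26 FPKM, 10.7-fold higher. The Rab27 effectors of the synaptotagmin-like family differed in direction, Sytl3 at 2.33 and 0.277 FPKM and Sytl1 at 2.59 and 0.863 FPKM against Sytl2 at 0.181 and 1.25 FPKM. Rab27a itself was 4.81 and 2.04 FPKM, and Ppfia4, a liprin scaffold of the active zone, 10.9 and 3.48 FPKM.

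The other lists held the remaining differences. Their counts are small, and their shares were not tested against the 10.5% lower and 12.4% higher over all genes. Of 15 vesicle membrane proteins and transmitter transporters, 2 (13.3%) were lower in NCs and none higher. These were Syngr1 (synaptogyrin 1, a relative of synaptophysin) at 44.6 and 15.5 FPKM and Sncb (beta-synuclein) at 6.03 and 2.68 FPKM. In the endocytosis list, Bin1 (amphiphysin 2) was 6.80 and 23.5 FPKM, 3.46-fold higher, and no other of the 12 genes differed 2-fold (8.33% higher). None of the 4 genes of SNARE disassembly, NSF and its adaptors, differed 2-fold, and neither did any of the 17 other SNAREs and SM proteins of the secretory and endosomal route, whose log2 ratios ran from -0.40 to 0.73.

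**Figure D3:**
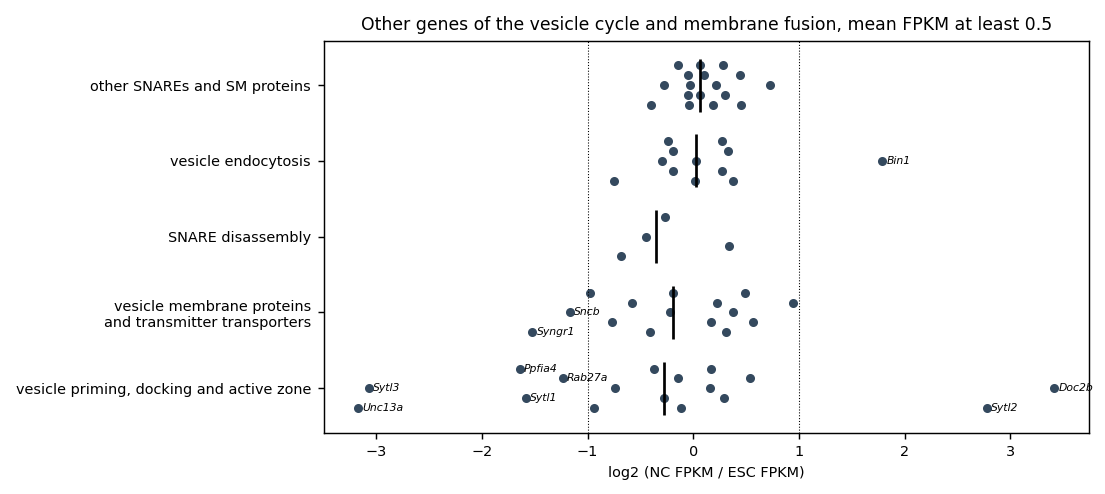
Log2 ratio of NC to ESC FPKM (horizontal axis) of the genes past the level limit in each of 5 lists (1 point a gene, shifted vertically for visibility), with medians as black bars and dotted lines at a 2-fold difference. The 17 general SNAREs and SM proteins lie between -0.40 and 0.73, while the 17 priming, docking and active zone genes run from -3.17 (Unc13a) to 3.42 (Doc2b).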

How the data were processed

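RNA-seq of 3 ESC and 3 NC samples was analysed. The authors aligned TruSeq reads to mm10 with TopHat2 (2.0.8) on top of Bowtie2 (2.1.0), ran Cufflinks 2.0.2 and Cuffmerge, and deposited the Cuffdiff output as 1 FPKM per gene and condition. The heading of the NC column reads FPK and was taken as FPKM. The deposited log2 fold changes, test statistics, p-values and q-values are the authors' own comparison and were not used. Summed over the table, FPKM came to 770592 (ESC) and 628679 (NC). How many fragments each sample had is unknown. A floor of 3 fragments, 0.0413 (ESC) and 0.0428 (NC) FPKM in 1 kb, was inferred from steps among the smallest values of single-transcript genes, and covers counting error only. In NCs a smaller step of 0.00714 was commoner, with 112 genes against 33 at the step of 0.0143 that was used. The NC floor may thus stand for more than 3 fragments.

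Ratios are NC over ESC with no pseudocount. Genes with a mean of both conditions of at least 0.5 FPKM were called at 2-fold. Where a name has several rows, as 160 names do, the row with the highest mean was used. Every gene found by the name rule is named, except that some results are not reported here, although they enter counts and medians. Of the other lists, those past both limits are named, at most 5 in each direction per list. The members and lists were chosen with earlier results of these data known. Positions, overlaps and 50-base words came from GENCODE M21 on GRCm38 (mm10), on which 67 of the 68 genes were matched, and promoters from RefSeq (GRCm38.p6), with 52 matched. The calls were tested on simulated data. That test used planted differences with little noise, so it checks the code and not the calls of these genes. Alternatives were other level and fold limits, pseudocounts, centring, summed rows, and other classes and denominators. Python 3.11.15, numpy 2.4.6, pandas 2.3.3 and matplotlib 3.10.9 were used.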

Additional observations from a re-analysis of the deposited data

How the results depend on the processing

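No paired analysis was possible because the table holds 1 value per condition and none per replicate, and for the same reason no replicate could be left out. Of 71 values recomputed, 56 stayed within the tolerance (1.5 times for a count, 0.1 for a median log2 ratio, 5 percentage points for a share), 15 moved beyond it and 0 reversed. Part of the 56 could not have moved, so their number is no measure of robustness. A class median does not use the fold limit, and regrouping the mixed genes leaves the class they do not join unchanged. The Snap25 shares lie under 5%, so a larger denominator could not lower them by the tolerance. Only a median could reverse. With a 1.5-fold limit, 13 vesicle and SNARE genes were higher in NCs, and 2881 of all genes were higher and 2678 lower. With a 4-fold limit, 2 of the genes were higher and 1 lower, and 652 and 478 of all genes. With no level limit, 11 were higher, 2944 of all genes were higher and 2401 lower, and the neuronal median log2 ratio was -0.00895. A pseudocount of 1 left 4 higher, with Snap91 and Stxbp4 among those then under 2-fold, and 1073 of all genes. The neuronal median was -0.00895 with the mixed class included and -0.0363 with rows of a name summed. Centring on the median log2 ratio of -0.05 (11715 genes at 1 FPKM or more in both conditions) put Stx17 past 2-fold, at a log2 ratio of 1.02. The fold and level limits change which genes are counted, while a pseudocount and centring change the ratios themselves. Without per-sample depth, values under 0.5 FPKM rest on an unknown number of fragments.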

Other observations

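Some genes lie close to the names taken in but have another letter or word behind the stem, and were named after their values were seen. Stxbp3a (Munc18-3, a ubiquitous Munc18) was 9.40 FPKM in ESCs against 8.61 in NCs, and Stxbp3b was 1.48 and 2.84 FPKM. Of the regulators of Rab3, the GTPase-activating subunits Rab3gap1 and Rab3gap2 were 12.4 and 10.5 FPKM and 13.7 and 10.1 FPKM. The exchange factor Rab3ip was 23.6 and 22.7 FPKM. Its relative Rab3il1 was 13.3 FPKM in ESCs against 4.86 in NCs, 2.73-fold lower in NCs. Stxbp5l, a relative of tomosyn, was 0.0408 and 0.0485 FPKM, too low for a call. Each of these values is 1 estimate over the 3 replicates of a condition, and their spread is unknown.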
